A study of Homo sapiens with 12 samples.

Results

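The genes described here are 56 developmental homeobox genes that lie outside the HOX clusters, out of 20037 protein-coding genes on the 24 chromosomes in RefSeq GRCh38.p14. They were chosen by name: DLX1 to DLX6, LHX1 to LHX6 with LHX8 and LHX9, SIX2, SIX3, SIX6, 9 NKX genes, IRX1 to IRX6, the EMX, OTX, MSX, EN, GBX and GSX pairs, POU3F1 to POU3F3, POU4F1 to POU4F3, BARHL1, BARHL2, CDX1, CDX2, ISL1 and ISL2. All 56 names were found, on 16 chromosomes, with a median gene body of 6039.5 bp against 24115 bp for all protein-coding genes. Each body was set against the H3K27me3 and pan-succinyllysine (Ksu) peak lists of HepG2/C3A cells, a human hepatocellular carcinoma line. Treatment was sodium succinate at 10 mM or control, which the series' design text alone calls a vehicle, and lasted 48 hours. Each antibody and treatment had 2 biological replicates, called control 1, control 2, succinate 1 and succinate 2. Background from the 4 IgG samples was not used here.

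Homeobox genes encode transcription factors that bind DNA through a homeodomain and set regional and cell identity in the embryo. In cells of another lineage such genes are classic targets of Polycomb complexes. Polycomb repressive complex 2 trimethylates lysine 27 of histone H3, the mark is spread over broad domains, and the genes beneath it are kept silent. Lysine succinylation is an acyl modification made from succinyl-CoA that occurs on histones and on many other proteins. CUT&Tag maps such marks by tethering a transposase to the antibody, and a peak here is a stretch of the genome where one library's signal passed the peak caller's threshold.

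The libraries differed widely in what they called. H3K27me3 peaks numbered 19133 and 5813 in control against 9985 and 5531 in succinate. Ksu peaks numbered 76702 and 382019 in control against 294568 and 629903 in succinate. The lowest total signal of a listed peak, its floor, was counted in the smallest signal step of each library. For H3K27me3 this floor was 51892 and 211123 steps in control, with 132374 and 330250 in succinate. For Ksu it was 8977 and 76.0 steps in control, with 4247 and 49.0 in succinate. Read depth cannot be read from these lists, so the precision of a single library is unknown, and peak heights were not compared between libraries. As a check of the cell line, none of 13 hepatocyte genes, among them ALB, APOB, TTR and HNF4A, carried an H3K27me3 peak anywhere on its body in any library, as was so for 75% of all protein-coding genes. None of 8 ubiquitous genes did either.

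H3K27me3 peaks overlapped most of the homeobox genes in every library. In control 45 and 38 of the 56 genes (80.4% and 67.9%) had a peak on the body, and in succinate 42 and 38 (75.0% and 67.9%). Over all protein-coding genes the same shares were 23.4% and 13.6% in control against 19.1% and 15.5% in succinate. A total of 34 homeobox genes had a peak in all 4 libraries, against 12.3% of all genes, and 11 had none in any library, against 75% of all genes. Of the 34, 16 lay wholly under peaks in all 4 libraries, which 2.72% of all genes did. These counts carry no test, since the genes were listed with earlier results of these data known.

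By bases, 57.4% and 45.4% of the homeobox gene bodies lay under H3K27me3 peaks in control, and 54.9% and 53.8% in succinate. The bodies of all genes were covered over 7.07% and 4.60% in control against 6.30% and 5.31% in succinate. The homeobox genes were therefore covered 8.12, 9.88, 8.70 and 10.1 times as densely as gene bodies in general, in the order control 1, control 2, succinate 1, succinate 2. The median homeobox gene had 85.4%, 62.3%, 81.4% and 72.1% of its body under peaks in that order, and the median protein-coding gene had 0.

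**Figure D1:**
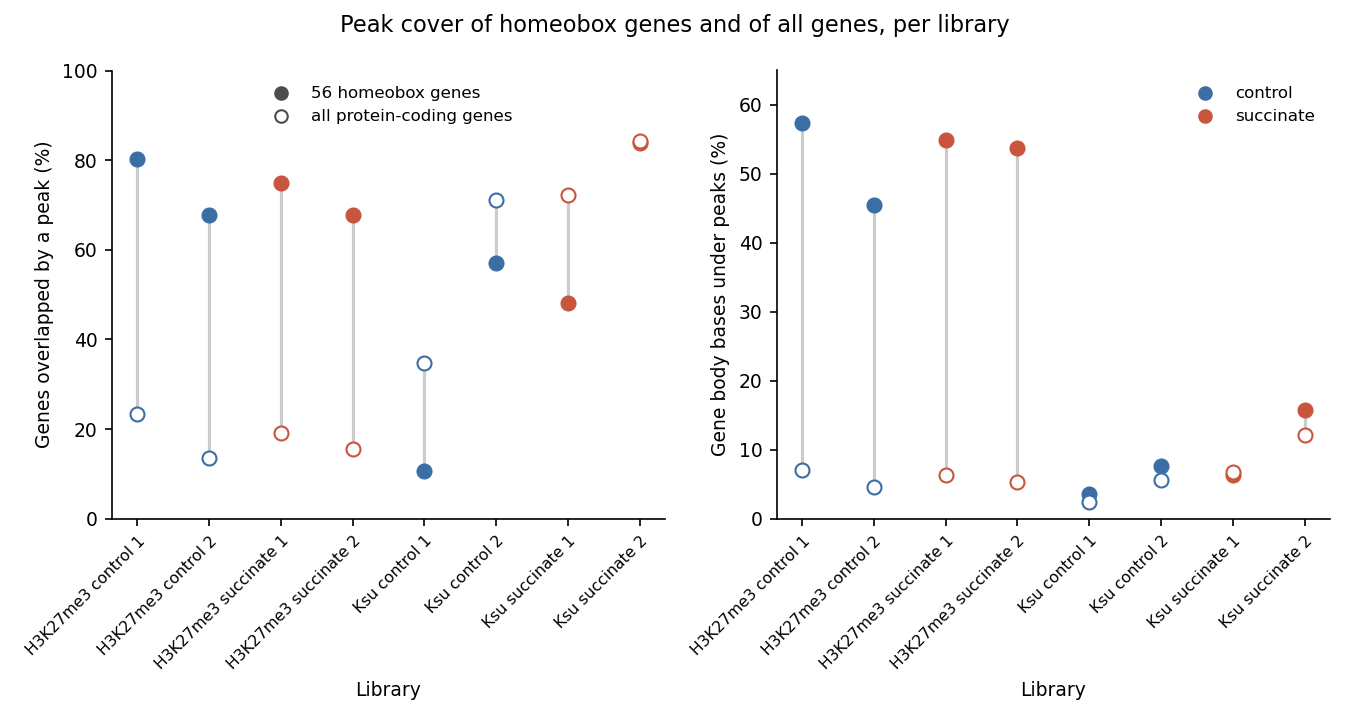
Share of genes overlapped by a peak (left, %) and share of gene body bases under peaks (right, %) in each of the 8 libraries; filled points are the 56 homeobox genes, open points all protein-coding genes, blue control and red succinate. In the H3K27me3 libraries the filled points lie far above the open ones (57.4% against 7.07% of bases in control 1), while in the Ksu libraries they lie close together by bases and at or below the open points by genes.

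Ksu peaks did not set these genes apart in the same way: they overlapped a smaller share of them than of all genes in each library, and by bases the direction varied between libraries. They overlapped 6 and 32 of the 56 genes in control, with 27 and 47 in succinate, or 10.7%, 57.1%, 48.2% and 83.9%, against 34.8%, 71.1%, 72.2% and 84.4% of all genes. The homeobox bodies are shorter than most, and the share of genes overlapped was not adjusted for length. By bases, 3.61% and 7.58% of the homeobox bodies were covered in control, with 6.34% and 15.8% in succinate, against 2.46%, 5.60%, 6.71% and 12.1% of all gene bodies. Without the longest bodies, POU3F3 and LHX8, the homeobox values were 1.06%, 6.53%, 5.99% and 15.2%, so control 1 turned from above all gene bodies to below. On a log2 scale, the cover of the homeobox genes over that of all genes was 3.20 on average for H3K27me3 (3.02 to 3.34) and 0.32 for Ksu (-0.08 to 0.55). The difference of 2.88 exceeded the pooled SD of 0.21, and the 4 libraries of each antibody did not overlap. Without POU3F3 and LHX8 the Ksu values ran from -1.21 to 0.33 and the difference was 3.65.

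The 8 families were covered unequally. In the LIM family (LHX and ISL) 9 of 10 genes had H3K27me3 in all 4 libraries, and ISL2 had none. The head and midline genes (EMX, OTX, MSX, EN, GBX and GSX) had 9 of 12, the NKX genes 6 of 9, the DLX genes 3 of 6, and the BARHL and CDX genes 2 of 4. Of SIX2, SIX3 and SIX6, the first 2 had it in all libraries. The POU genes had 2 of 6, and the IRX genes 1 of 6, with 3 IRX genes in no library.

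**Figure D2:**
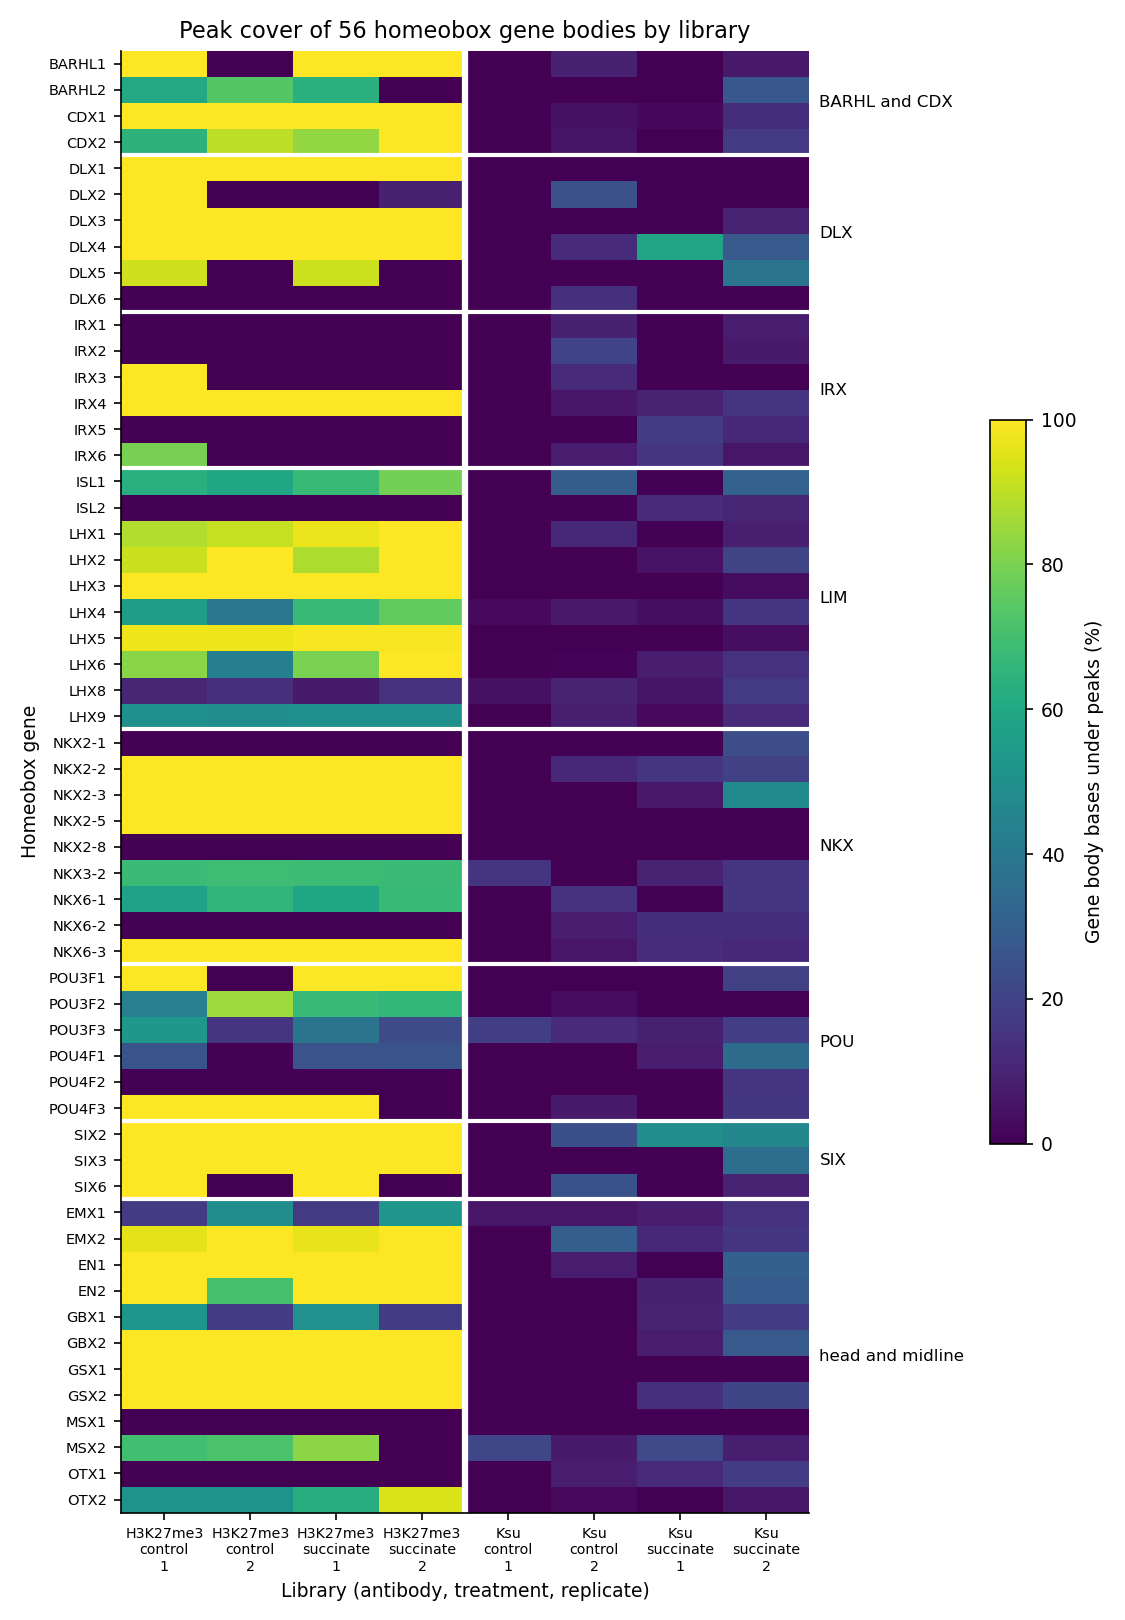
Percent of each homeobox gene body under peaks (colour, 0 to 100%) for the 56 genes in rows, grouped by family, and the 8 libraries in columns, H3K27me3 on the left and Ksu on the right. Most H3K27me3 rows are near 100% or at 0 in all 4 libraries, with LIM and head and midline genes mostly covered and IRX genes mostly not, while Ksu cover passes 50% only for DLX4 in succinate 1.

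The DLX genes encode Distal-less factors of the forebrain, the branchial arches and the limb, and lie in neighbouring pairs. DLX1 (chromosome 2, 172085507 to 172089674) and DLX3 (chromosome 17, 49990005 to 49995224) were wholly under H3K27me3 peaks in all 4 libraries, as was DLX4. DLX3 and DLX4 lay under a single shared peak in every library, 64.6 and 41.7 kb wide in control against 64.9 and 141 kb in succinate. DLX2, the neighbour of DLX1, was covered over 100% in control 1, 0.202% in control 2, 0 in succinate 1 and 8.89% in succinate 2. The peak that held DLX1 ended close to the edge of DLX2: in control 2 at position 172099444, where DLX2 begins at 172099438, and in succinate 1 at 0.02 kb from it. For DLX2 the count of libraries with a peak thus turned on a few bases. DLX5 was covered over 92.8% in control 1 and 92.3% in succinate 1 and not at all in control 2 and succinate 2, and its neighbour DLX6 had no peak in any library.

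LIM-homeodomain genes pattern the head, the motor neurons, the pituitary and the gonad. LHX3, a pituitary and motor neuron gene (chromosome 9, 136196250 to 136205128), was wholly covered in all 4 libraries. LHX5, a forebrain gene (chromosome 12, 113462033 to 113471871), was covered over 97.4% and 97.3% in control against 99.2% and 98.9% in succinate. LHX2 and LHX1 had mean cover over the 4 libraries of 95.0% and 94.1%. LHX6, of cortical interneurons, ranged from 43.0% in control 2 to 100% in succinate 2. Long genes of the family were covered in part: LHX9 over 49.1% to 50.3%, and LHX8, which is 71021 bp long, over 7.10% to 14.1%. ISL2 had no H3K27me3 peak closer than 145 kb, whereas ISL1, its paralog in motor neurons and heart progenitors, was covered over 58.6% to 78.9%.

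SIX2, a gene of nephron progenitors (chromosome 2, 45005182 to 45009452), and SIX3, a forebrain and eye gene (chromosome 2, 44941702 to 44946071), were wholly covered in all 4 libraries. They are neighbours but lay under separate peaks, from 24.9 to 30.9 kb wide over SIX2 and from 47.5 to 55.6 kb over SIX3. SIX6, a retina and pituitary gene, was wholly covered in control 1 and succinate 1 and bare in control 2 and succinate 2. That division by replicate number, shared with DLX5, was found in 2.93% of all genes.

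NKX genes specify ventral neural, cardiac, pancreatic and gut fates. NKX2-2, a pancreatic and ventral neural tube gene (chromosome 20, 21511017 to 21522689), and NKX2-3, a gene of spleen and gut mesenchyme (chromosome 10, 99532942 to 99536524), were wholly covered in all 4 libraries. So were the cardiac gene NKX2-5 and the gut gene NKX6-3. NKX3-2, a cartilage gene, was covered over 68.0% to 69.1%, and NKX6-1, a beta cell gene, over 57.7% to 67.6%. The bare genes were NKX2-1, of thyroid and lung, NKX2-8 and NKX6-2. The nearest H3K27me3 peak lay 0.038 to 134 kb from NKX2-1, 63.6 to 71.3 kb from its neighbour NKX2-8, and 0.803 to 6.49 kb from NKX6-2.

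The Iroquois genes form a cluster on chromosome 5 (IRX4, IRX2, IRX1) and another on chromosome 16 (IRX3, IRX5, IRX6). IRX4, a gene of the cardiac ventricle (chromosome 5, 1877413 to 1887179), was wholly covered in all 4 libraries under a peak of 41.7 to 54.0 kb. In the same cluster IRX2 and IRX1 were bare, with the nearest peak 8.87 to 427 kb from IRX2 and 249 kb from IRX1 in each library. IRX3 (chromosome 16, 54283304 to 54286787) was covered over 100% in control 1 and 0 in the other 3 libraries, and IRX6 over 79.4% in control 1 and 0 in the others. A peak in control 1 alone was found on 4.93% of all genes, and control 1 had the most H3K27me3 peaks. IRX5 had none, with the nearest 1.61 to 45.4 kb away.

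Among the head and midline genes, EN1, of the midbrain and hindbrain boundary (chromosome 2, 118842171 to 118847648), and GBX2, of the anterior hindbrain (chromosome 2, 236161340 to 236168386), were wholly covered in all 4 libraries. GSX1 and GSX2, of the ventral forebrain, were too, and EMX2, of the cerebral cortex, was covered over at least 96.0%. EN2 had 100% in control 1 and both succinate libraries and 70.8% in control 2. EMX1 and GBX1, the paralogs of EMX2 and GBX2, were covered in part. EMX1 had 17.4% and 49.0% in control against 16.9% and 52.0% in succinate, and GBX1 had 52.5%, 17.8%, 50.6% and 17.5% in the same order. Both genes thus differed more between replicate numbers than between treatments. MSX2, a neural crest and skull gene, had 69.7%, 71.8% and 82.8% in control 1, control 2 and succinate 1 and 0 in succinate 2. MSX1 was bare, though a peak lay 0.458 to 2.03 kb away in every library, and OTX1 was bare with the nearest peak 560.5 to 1190.3 kb away.

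POU3F1, a gene of myelinating glia (chromosome 1, 38043829 to 38046793), was wholly covered in all libraries but control 2, where it was bare. POU4F3, a hair cell gene (chromosome 5, 146338839 to 146341728), was wholly covered in all but succinate 2. POU4F1, a sensory neuron gene, had 25.8% in control 1, 25.5% in succinate 1, 25.8% in succinate 2 and 0 in control 2, where the nearest peak was 0.686 kb away. POU4F2, a gene of retinal ganglion cells, was bare, with the nearest peak 108 to 6290.2 kb away. POU3F2 had 43.5% and 85.2% in control against 67.3% and 66.1% in succinate, and POU3F3, the longest body of the set at 74498 bp, had 53.2%, 15.6%, 38.5% and 22.9%.

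CDX1 and CDX2 encode caudal factors of the intestine, and the BARHL genes act in the inner ear and nervous system. CDX1 (chromosome 5, 150166778 to 150184558) was wholly covered in all 4 libraries, under the widest peaks found on any of the 56 genes: 114 and 148 kb in control against 147 and 146 kb in succinate. CDX2 (chromosome 13, 27960918 to 27969315) had 64.5% and 90.2% in control against 83.9% and 100% in succinate, which overlap. BARHL1 was wholly covered in all but control 2. BARHL2 had 60.2%, 73.5% and 63.3% in control 1, control 2 and succinate 1 and 0 in succinate 2, with a peak 0.022 kb from its edge there.

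Promoter windows followed the gene bodies. RefSeq windows of 300 bases, from 250 before to 50 after a gene's start, were matched for 41 of the 56 genes (GRCh38.p14). That start is not always the edge of the body used above. For some genes, among them OTX1, LHX4 and NKX3-2, the whole window lay inside the body. H3K27me3 peaks overlapped 30 and 23 of the 41 windows in control, with 27 and 25 in succinate, against 15.4%, 8.48%, 12.7% and 10.1% of all windows. All 4 libraries had a peak over 20 of the 41, against 7.36% of all windows, and none had a peak over 10, against 82.9%. Of these 10 genes 9 were bare over the body as well, and BARHL2 was marked over the body in 3 libraries but not at the window. Ksu peaks overlapped 1 and 5 windows in control, with 1 and 8 in succinate, against 2.03%, 7.53%, 7.75% and 12.8% of all windows. None of the 41 windows had Ksu in all 4 libraries, and 0.0316% of all windows did.

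Many Polycomb targets have promoters rich in CG pairs, so the letters of marked and bare promoters are shown side by side. DLX1 and GBX2 had H3K27me3 over the window in all 4 libraries, and IRX2 and OTX1 had it in none. Each sequence is RefSeq's, 5′ to 3′ on the gene's strand, with every CG pair in capitals. The DLX1 window (chr2:172085257-172085556, plus strand) holds 23 CG pairs, and the GBX2 window (chr2:236168337-236168636, minus strand) holds 36. The bare windows of IRX2 (chr5:2751628-2751927, minus strand) and OTX1 (chr2:63050580-63050879, plus strand) hold 34 each.
DLX1: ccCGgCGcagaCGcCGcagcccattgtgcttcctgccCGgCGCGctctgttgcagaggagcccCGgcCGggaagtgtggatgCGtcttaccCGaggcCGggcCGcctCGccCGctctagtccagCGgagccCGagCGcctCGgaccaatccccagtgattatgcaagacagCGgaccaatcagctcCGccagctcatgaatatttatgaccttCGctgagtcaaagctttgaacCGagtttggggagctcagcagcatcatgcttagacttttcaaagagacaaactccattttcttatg
GBX2: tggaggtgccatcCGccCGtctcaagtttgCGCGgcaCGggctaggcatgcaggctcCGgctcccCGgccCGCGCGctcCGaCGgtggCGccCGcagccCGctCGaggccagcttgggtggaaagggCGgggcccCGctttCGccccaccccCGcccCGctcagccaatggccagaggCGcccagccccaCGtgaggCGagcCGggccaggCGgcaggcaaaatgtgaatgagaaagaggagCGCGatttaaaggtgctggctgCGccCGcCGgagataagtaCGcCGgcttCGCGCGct
IRX2: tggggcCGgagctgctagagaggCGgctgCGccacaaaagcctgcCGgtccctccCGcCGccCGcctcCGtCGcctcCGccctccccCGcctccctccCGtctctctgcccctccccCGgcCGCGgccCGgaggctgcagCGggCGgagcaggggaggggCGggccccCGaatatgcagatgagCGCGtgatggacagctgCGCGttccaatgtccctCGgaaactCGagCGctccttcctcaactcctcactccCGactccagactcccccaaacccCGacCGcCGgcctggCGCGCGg
OTX1: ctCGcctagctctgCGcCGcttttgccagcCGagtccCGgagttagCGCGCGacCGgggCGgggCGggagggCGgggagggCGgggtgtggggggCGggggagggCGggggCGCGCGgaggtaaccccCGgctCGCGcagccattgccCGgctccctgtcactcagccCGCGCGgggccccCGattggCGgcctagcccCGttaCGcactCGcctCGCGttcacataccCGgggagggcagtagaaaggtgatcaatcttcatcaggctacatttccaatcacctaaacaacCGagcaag

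Among the printed windows the marked one of DLX1 has the fewest CG pairs and the marked one of GBX2 the most. The ratio of observed to expected CG pairs, given the window's own C and G, had a median of 0.845 in the 20 windows under H3K27me3 in all 4 libraries. It was 0.846 in the 11 windows with 1 to 3 libraries and 0.884 in the 10 with none, where it ran from 0.561 to 1.34. The ratio was above 0.6 in 38 of the 41 homeobox windows (92.7%) and in 65.5% of all windows, whose median ratio was 0.761. Among all protein-coding windows, those under H3K27me3 in all 4 libraries had a median ratio of 0.657. The motif TATAAA, searched on both strands, was found in 2 of 41 homeobox windows (4.88%, GSX2 and POU4F3) and in 9.75% of all windows.

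**Figure D3:**
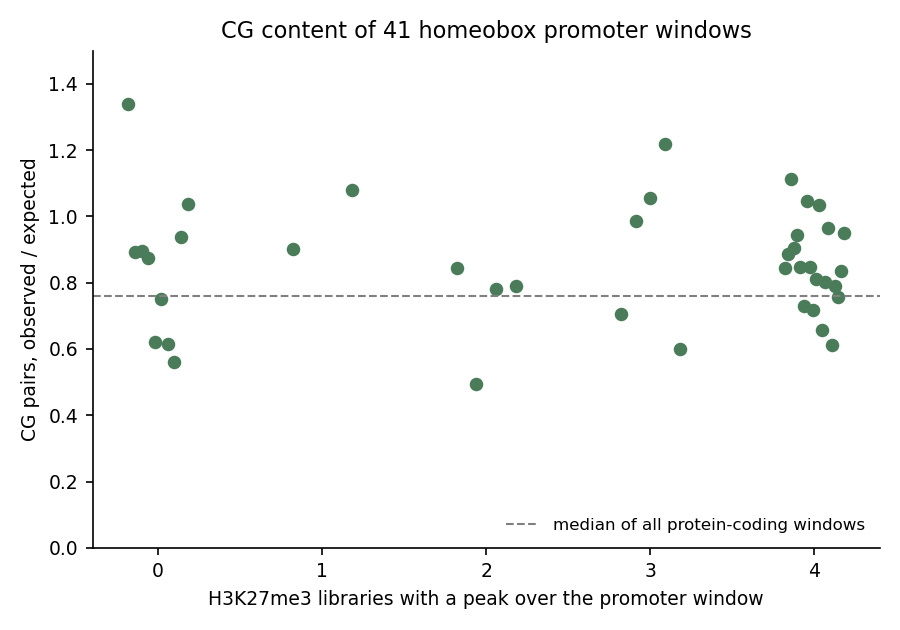
Ratio of observed to expected CG pairs (vertical axis) in 41 homeobox promoter windows, 1 point each, by the number of H3K27me3 libraries with a peak over the window (horizontal axis, 0 to 4); the dashed line is the median of all protein-coding windows, 0.761. Points with 0 libraries run from 0.561 to 1.34 and those with 4 libraries from 0.613 to 1.11, with medians of 0.884 and 0.845.

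The mark extended beyond the promoters. In the first kb after the start, H3K27me3 peaks covered on average 72.0% and 56.1% of the bases in control, with 67.7% and 61.0% in succinate over the 41 genes, against 15.2%, 8.38%, 12.5% and 10.0% over all genes. From 50 to 40 kb before the start the homeobox values were 18.7%, 11.4%, 19.3% and 14.7%, above the 10.1%, 6.12%, 9.76% and 8.01% of all genes. The excess was not unbroken: in control 2, at 18.5 kb before the start, the homeobox value was 3.34% against 5.91% of all genes. Ksu cover in the first kb was 2.44% and 11.0% in control, with 1.16% and 14.7% in succinate, against 1.17%, 3.93%, 4.79% and 7.58% over all genes. From 50 to 40 kb before the start it was 2.78%, 7.002%, 7.25% and 12.3%, so the first kb was above that flank only in control 2 and succinate 2. In the kb just before the start Ksu cover was 0.139%, 3.91%, 3.83% and 9.79%, below that flank in each library. Over all genes it was 1.58%, 3.87%, 4.97% and 7.17% there, also below their 1.72%, 4.12%, 6.34% and 11.7% in that flank. One kb farther before the start the homeobox values were 2.76%, 7.83%, 7.79% and 18.4%, above the flank in all but control 1.

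**Figure D4:**
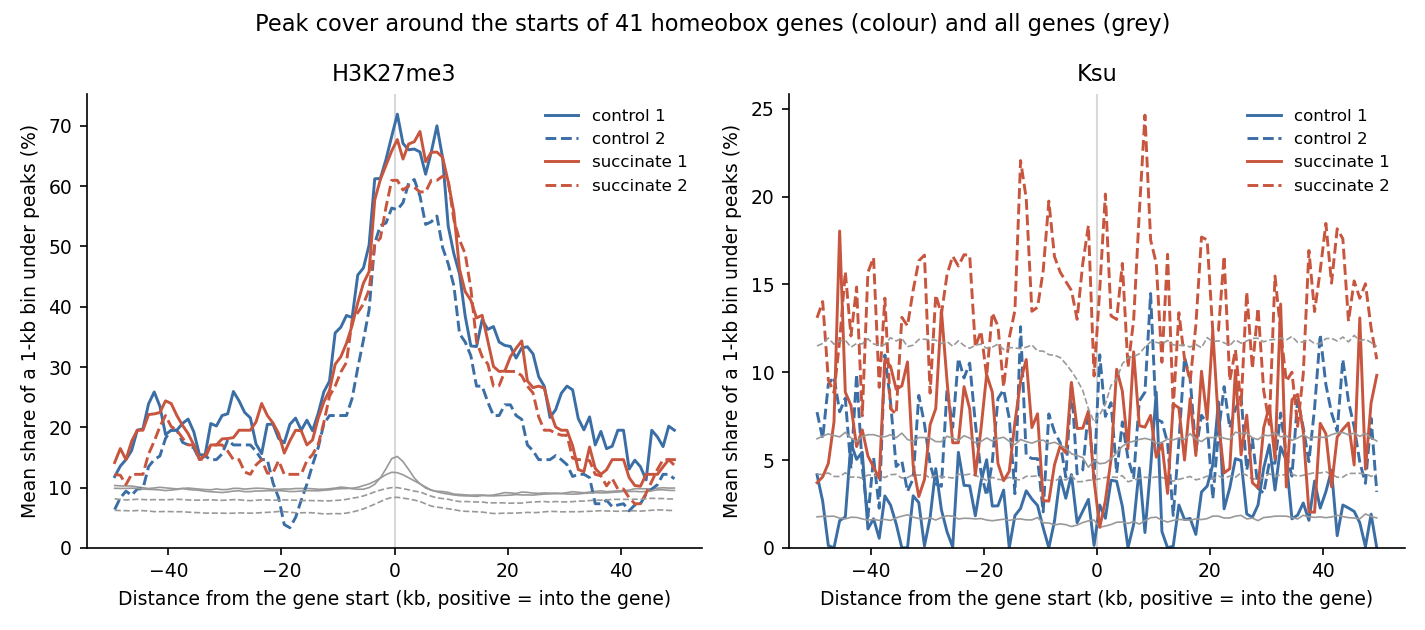
Mean share of each 1-kb bin under peaks (%) by distance from the gene start (kb), for H3K27me3 (left) and Ksu (right); coloured lines are the 41 homeobox genes with a matched start, grey lines all genes, solid replicate 1 and dashed replicate 2. H3K27me3 cover of the homeobox genes reaches 56.1% to 72.0% in the first kb after the start and 26.6% to 41.01% from 10 to 5 kb before it, and the Ksu lines are ragged, with no broad rise around the start.

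Peak widths over these genes were near those over other marked genes. Among the 34 genes with H3K27me3 in all 4 libraries, the widest peak on the gene had a median width of 23.9 and 23.6 kb in control against 24.3 and 31.4 kb in succinate. Over all genes so marked it was 21.2 and 21.5 kb in control, with 26.7 and 29.0 kb in succinate. The homeobox peak was wider in both succinate libraries than in both control libraries for 14 of the 34, against 44.8% of all genes so marked, and narrower for 3 (LHX8, SIX2 and NKX3-2), against 5.52%. DLX3 and DLX4, both among the 14, share 1 peak. Their share of wider peaks, 41.2%, was thus near that of all marked genes. With equal numbers of peaks in each library it was 12 of 30 genes (40%), against 45.4% of all genes so marked. EN2 had peaks of 23.2 and 54.2 kb in control, with 92.1 and 122 kb in succinate, and LHX1 of 17.1 and 17.2 kb in control, with 30.3 and 33.6 kb in succinate. By total signal, the peaks on the homeobox genes had a median percentile within their library of 87.4, 81.6, 80.7 and 78.0, in the order control 1, control 2, succinate 1, succinate 2. By width the same peaks had median percentiles of 82.0, 71.6, 74.2 and 69.4, and total signal is summed over a peak's width. Percentiles for peaks on other genes are not given here.

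The design asks whether succinate altered the mark. For the homeobox genes as a whole the H3K27me3 cover of summed bases differed by 0.09 on a log2 scale between succinate and control, within the pooled SD of 0.17. Without control 2 the difference was -0.08. Relative to all gene bodies it was 0.07, within an SD of 0.18, and it turned to -0.03 with equal numbers of peaks and to -0.13 at a common floor. Leaving out control 1 or succinate 2 turned it to -0.07 or -0.04. The number of genes overlapped was 41.5 on average in control and 40 in succinate, a difference of -1.5 against an SD of 4.03, and it was 3 at a common floor, 1 with equal numbers, 2 without control 1 and 0.5 without succinate 2. No direction was therefore stable, and no homeobox gene was marked in both libraries of one treatment and neither of the other. Genes marked only in succinate made up 0.279% of all genes, and those marked only in control 0.145%.

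Gene by gene, 5 homeobox genes had more H3K27me3 cover in both succinate libraries than in both control libraries: OTX2, LHX4, ISL1, LHX1 and LHX5. That is 8.93% of the 56, against 3.71% of all genes. None had less cover in both, against 1.13% of all genes. Genes with no H3K27me3 peak in any library cannot be called, and they made up 75% of all genes against 19.6% of the 56. The shares are therefore not on an equal base and cannot show whether homeobox genes gained the mark more often. Leaving out a library loosens the rule of both libraries against both, so the counts can then only stay or rise. The share of all genes under the looser rule is not given here, so those counts do not set the homeobox genes apart. Higher genes numbered 12 without control 1, 10 without control 2, 10 without succinate 1 and 7 without succinate 2. Those lower numbered 3 without control 1, 7 without control 2, 4 without succinate 1 and 4 without succinate 2.

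OTX2, a gene of the forebrain and retina (chromosome 14, 56799905 to 56810479), was covered over 51.3% in each control library and over 62.1% and 94.3% in succinate. The difference of 26.95 points rested mainly on succinate 2, with an SD of 0.027 in control and 22.8 in succinate. LHX4, a pituitary gene (chromosome 1, 180228375 to 180278984), had 56.1% and 39.8% in control against 67.6% and 76.0% in succinate, a difference of 23.9 points with SDs of 11.5 and 5.96. ISL1 (chromosome 5, 51383448 to 51394730) had 63.1% and 58.6% in control against 67.2% and 78.9% in succinate, 12.2 points apart. LHX1, of the head organizer and kidney (chromosome 17, 36936785 to 36944612), had 88.3% and 91.1% in control against 97.1% and 100% in succinate. LHX5 differed by 1.70 points. With 2 libraries a side, no gene could reach an exact permutation p below 0.333. LHX1, LHX4 and LHX5 were also higher in succinate with equal numbers of peaks, at a common floor and among the stronger 50% of peaks, and OTX2 and ISL1 were not. Of all genes, 4.98%, 5.73% and 2.67% were higher under those settings, in that order. BARHL1 was newly higher with equal numbers and at a common floor, and POU4F1 at a common floor. With bodies widened by 5 kb only LHX1 and LHX4 of the 5 were higher, and LHX5 fails a gap of 5 points.

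**Figure D5:**
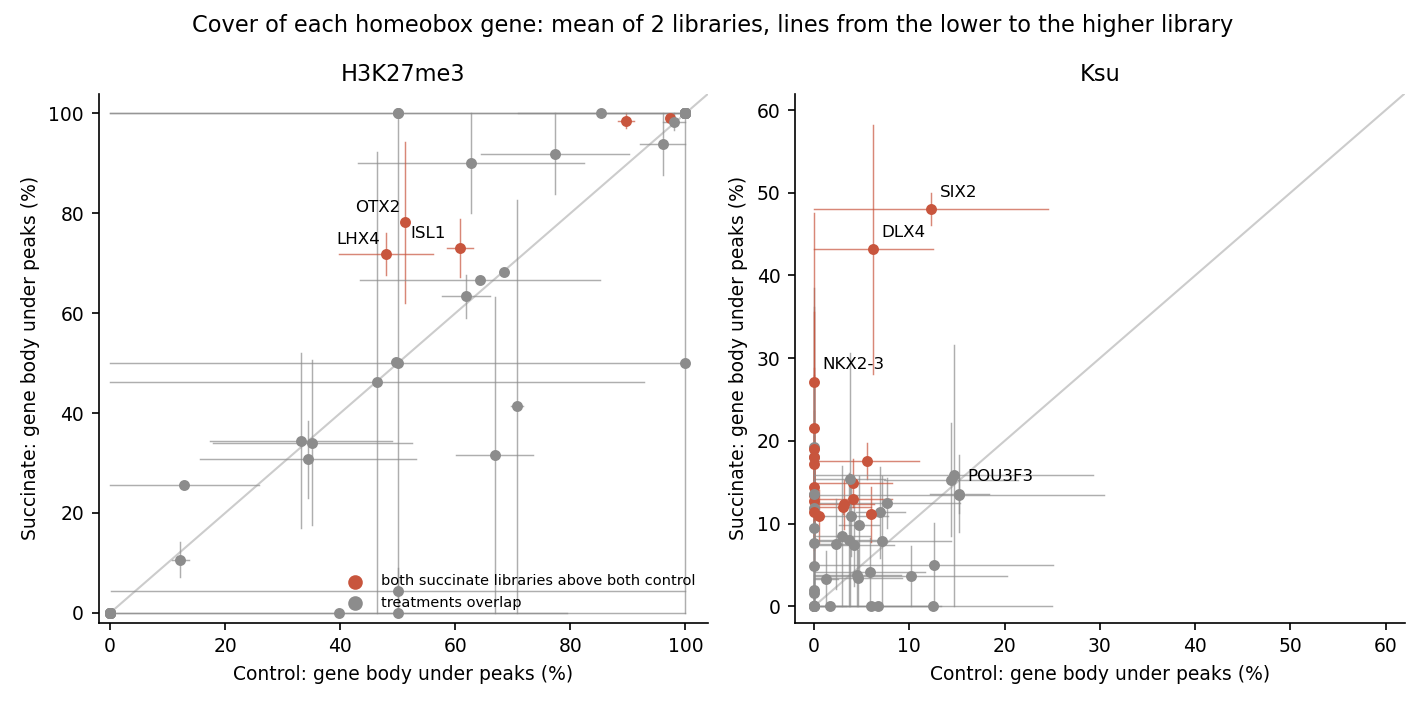
Percent of each gene body under peaks in control (horizontal) and succinate (vertical) for H3K27me3 (left) and Ksu (right); points are means of 2 libraries, lines run from the lower to the higher library, red marks the genes whose succinate libraries both exceed both control libraries, and the diagonal is equality. On the left 5 genes are red and the rest overlap or coincide, and on the right 18 genes are red, with SIX2 and DLX4 farthest above the diagonal.

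For Ksu, 18 of the 56 genes had more cover in both succinate libraries, or 32.1%, against 46.6% of all genes, and none had less, against 0.484%. The number of genes overlapped averaged 19.0 in control and 37.0 in succinate, a difference of 18 against an SD of 16.4. Libraries with more peaks overlapped more genes: control 1 with 76702 peaks had 6, and succinate 2 with 629903 had 47. With equal numbers of peaks the difference was 2.5 genes, and at a common floor it was 3. By summed bases the log2 difference was 0.94 against an SD of 0.85, and it changed to -0.20 with equal numbers. Without control 1 it was 0.40 and without succinate 2 it was 0.28, and without control 2 or succinate 1 it was 1.47 or 1.60.

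Relative to all gene bodies the Ksu cover was 0.49 in control and 0.15 in succinate on the log2 scale, a difference of -0.34 against an SD of 0.24. That value rested on the longest bodies, POU3F3 and LHX8, which hold 24.2% of the summed 602 kb. POU3F3 alone had Ksu over 18.4% of its body in control 1, the library with the fewest peaks, and over 12.1%, 8.95% and 18.2% in control 2, succinate 1 and succinate 2. Without these 2 genes the difference was 0.58, and with each gene weighted equally it was 0.14. The difference stayed negative with equal numbers of peaks (-0.53), at a common floor (-0.89) and in the stronger 50% of peaks (-0.48). At the common floor Ksu control 2 kept 2526 of its 382019 peaks and overlapped 1 homeobox gene, POU3F3. With bodies widened by 5 kb it was -0.14, and with a library left out it ran from -0.58 to -0.11. Apart from the common floor, where control 2 rests on POU3F3 alone, the direction of Ksu relative to other genes thus held across these settings. It turned with the choice and weighting of the homeobox genes, which were varied after seeing the data.

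The genes with the largest Ksu difference between treatments that did not overlap were DLX4, SIX2, NKX2-3, POU4F1 and EN2. DLX4 (chromosome 17, 49968572 to 49974959) had 0 and 12.4% in control against 58.2% and 28.1% in succinate. SIX2 had 0 and 24.6% in control against 49.9% and 46.1% in succinate. These were also the 2 homeobox genes higher in both succinate libraries when equal numbers of peaks were used, and DLX4 was the 1 at a common floor. Of all genes, 15.8% and 7.55% were higher under those settings, so being higher there does not single these genes out. NKX2-3 had 0 in both control libraries and 6.75% and 47.6% in succinate. POU4F1 (chromosome 13, 78598362 to 78603552) had 0 in both and 7.65% and 35.5%. EN2 (chromosome 7, 155458129 to 155464831) had 0 in both and 9.26% and 28.8%. Apart from SIX2, whose succinate libraries had an SD of 2.70 points, the succinate libraries of these genes stood far from each other, with SDs of 13.8 to 28.9 points. Leaving out succinate 1 raised the count of higher genes from 18 to 38, and leaving out control 1 gave 10 genes with less cover in succinate. With a library left out the rule is looser, so such counts can only stay or rise. The share of all genes under that looser rule is not given here, so these counts do not set the homeobox genes apart.

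Ksu was found in both succinate and neither control library on 9 homeobox genes (16.1%): LHX2, NKX2-3, IRX5, EN2, GBX1, GBX2, GSX2, POU4F1 and ISL2. Over all genes the share was 7.63%, and the reverse pattern, found on no homeobox gene, had a share of 0.0998%. With equal numbers of peaks, or at a common floor, none of these 9 genes had more Ksu in both succinate libraries. Ksu lay on 5 homeobox genes in all 4 libraries (LHX4, LHX8, EMX1, MSX2 and POU3F3), or 8.93%, against 31.7% of all genes. Without control 1 that count, which can then only stay or rise, was 17, and the share of all genes is not given there. Another 5 genes had no Ksu in any library (DLX1, NKX2-5, NKX2-8, MSX1 and GSX1), against 9.97% of all genes. Of these DLX1, NKX2-5 and GSX1 were wholly under H3K27me3 peaks in all 4 libraries, while NKX2-8 and MSX1 had none, so the genes without Ksu were of both kinds.

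Within the homeobox gene bodies, Ksu peaks covered 4.34% of the bases under H3K27me3 peaks of the same treatment and replicate in control 1 and 2.61% of the other bases. The corresponding values were 6.34% and 8.61% in control 2, 7.11% and 5.39% in succinate 1, and 16.9% and 14.6% in succinate 2. The share was higher under H3K27me3 in 3 of the 4 pairs. Over all gene bodies it was 4.18% and 2.33%, 6.91% and 5.54%, 12.4% and 6.33%, and 16.1% and 11.9%, higher under H3K27me3 in all 4. Without POU3F3 and LHX8 the homeobox values were 1.25% and 0.708%, 6.69% and 6.34%, 6.55% and 4.94%, and 16.9% and 12.2%, also higher under H3K27me3 in all 4. No test was made of these shares.

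Other homeobox genes were set beside these. Of 48 further developmental homeobox genes, among them the ALX, HMX, PITX and VSX genes, 27 (56.2%) had H3K27me3 in all 4 libraries and 9 in none. Of 24 broadly expressed homeobox genes such as the PBX, MEIS and ZHX genes, 5 had it in all 4, among them PBX4, MEIS3, PKNOX2 and ZEB2, and 16 had it in none. Among homeobox genes that act in the liver, HHEX, PROX1 and ONECUT2 had no H3K27me3 in any library. CUX2 was covered over 52.2% to 69.3% of its body. ONECUT1 had 10.5% and 0.453% in control against 17.5% and 0 in succinate. These lists were chosen with earlier results known and differ in gene length, so their shares are given as a description.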

How the data were processed

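Per the submitters' processing notes, peaks were called with SEACR on hg38. The aligner, the scaling of the signal, the threshold and any control track are not given in the sources used here. The authors deposited 1 peak list per library, with the total and the highest signal of each peak. Within each library the highest signals were whole multiples of 1 step, within 0.02 of a whole number, and steps differed between libraries, so signal heights were not compared. The common floor was the highest floor, in steps, among the libraries of an antibody, and peaks whose total signal reached it were kept. It thus treats a step as equal between libraries, which was not tested.

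Peaks on the 24 chromosomes were set against gene bodies and promoter windows of RefSeq GRCh38.p14 in Python 3.11.15 with numpy 2.4.6 and pandas 2.3.3. A gene counted as overlapped at 1 bp. Cover was the share of its bases under peaks, and summed cover was compared on a log2 scale. The exact permutation test of 2 libraries against 2 has 6 arrangements and a smallest p of 0.333. That between antibodies within treatments has 36 arrangements and a smallest p of 0.0556. Neither could pass 0.05, and no p is given for values summed over the genes. The computations were tested on simulated data. The labels call the replicates biological.

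The genes, the comparison lists and the naming rule were chosen with earlier results of these data known. The rule names every gene with 0 to 3 H3K27me3 libraries. It gives values per library for the 2 highest-covered genes of each family and for up to 5 genes per direction whose treatments did not overlap. It takes promoter sequences from 2 genes marked in all libraries and 2 in none. Further genes were described after their values were seen. Alternatives were equal numbers of peaks per antibody, a common floor, the stronger 50% of peaks, bodies widened by 5 kb, presence at 10% cover, gaps of 5 points, whole windows, the replicate number as a block, and each library left out. Added after seeing the data were equal weights for genes, the set without POU3F3 and LHX8, and left-out libraries for counts. Results for some genes of the comparison lists are not reported here.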

Additional observations from a re-analysis of the deposited data

How the results depend on the processing

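Of 138 alternative values for 14 results, 99 kept their direction or stayed within 1.5 times the count, among them the replicate blocks, which cannot differ. H3K27me3 cover relative to all genes, minus that of Ksu, ranged from 2.40 with genes weighted equally to 3.65 without POU3F3 and LHX8. The 34 genes with H3K27me3 in all 4 libraries were 28 in the stronger 50% of peaks to 38 with widened bodies. The shares of all genes were 8.06% and 14.7% there. The 20 promoter windows were 18 to 23 under the alternatives. The treatment differences in cover, and in genes with H3K27me3, did not keep their direction under every setting. With equal numbers of peaks the Ksu cover difference became -0.20, the relative H3K27me3 difference -0.034 and the difference in genes with H3K27me3 1. At a common floor the last 2 became -0.13 and 3. With genes weighted equally the relative differences were 0.14 for Ksu and -0.11 for H3K27me3, and the first was 0.58 without POU3F3 and LHX8. Under all other settings the relative Ksu difference stayed negative, from -0.89 at a common floor to -0.11 without succinate 1. At that floor Ksu control 2 overlapped POU3F3 alone of the homeobox genes. Leaving out a library gave -0.080 to 0.26 for H3K27me3 cover, -0.074 to 0.21 for its relative cover and -5 to 2 for the genes overlapped. The cause was not tested.

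Counts moved further. Genes with Ksu in all 4 libraries were 2 with equal numbers, 1 at a common floor and 3 in the stronger 50% of peaks. The shares of all genes were 16.5%, 2.00% and 18.1%. With bodies widened by 5 kb they were 13, against 38.6% of all genes. They were 0 at 10% cover and 5 to 17 with a library left out. Genes with more H3K27me3 in succinate were 3 in the stronger 50%, against 2.67% of all genes. They were 3 with a gap of 5 points and 7 to 12 with a library left out. Those with less were 1 in the stronger 50% and 3 with widened bodies, against 0.749% and 1.46% of all genes, and 3 to 7 with a library left out. Genes with more Ksu in succinate were 2, 1 and 10 with equal numbers, a common floor and the stronger 50%. The shares of all genes were 15.8%, 7.55% and 36.2%. With a library left out they were 20 to 38 homeobox genes. Those with less Ksu were 1 with equal numbers and 1 with widened bodies, against 4.11% and 0.579% of all genes, and 0 to 10 with a library left out. Replicate numbers did not mark shared material in the labels. Deviations of same-numbered libraries correlated at 0.28 for H3K27me3 and -0.064 for Ksu over the 56 genes, and a replicate block, which cannot move a mean difference in this balanced design, gives the same Ksu cover difference of 0.94 and shows nothing about pairing. Depth is unknown, so a bare gene in a library with few peaks may lie below its floor.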
